A study of Mus musculus with 16 samples.

Results

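Acetylated histone H3 (H3K27Ac) and lamin A/C were mapped by chromatin immunoprecipitation and sequencing in adult mouse cardiomyocytes, and the peaks at 8 genes of cardiac ion channels were described. The genes were Kcnq1, Kcnh2, Kcnj2, Kcnd2, Kcnip2, Hcn2, Hcn4 and Kcnj3. They were taken as a named list, and a peak was counted for one of them when the deposited annotation gave that gene as the nearest to the peak. Although the list had been titled for sodium and potassium channels, it held no sodium channel gene. Of the 8 genes, 5 had a peak in at least 1 list. In the whole series 11472 genes had one, and their share of all annotated genes was not computed. Their H3K27Ac peaks numbered 26 of 53959 over the 4 H3K27Ac lists, and their lamin A/C peaks 1 of 2190 over the 4 lamin A/C lists.

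Hearts of mice aged 3 months, with desmin (Des+/+) or without it (Des-/-), were perfused with enzymes to free the cells. Desmin is the main intermediate filament protein of muscle, and its loss is germline, so every cell of the Des-/- animals lacked it. Mice of each genotype were unstressed (basal) or had undergone swimming exercise (swim). For every genotype, condition and antibody, chromatin of several animals of either sex was pooled into 1 library, which had its own input. There was thus no replicate in any group, no test between groups was possible, and intervals given for heights and ratios are exact 95% intervals for counting error only.

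Repolarisation of the cardiomyocyte rests on potassium channels that open at different times in the action potential. Kcnd2 encodes a pore subunit of the fast transient outward current and Kcnip2 its accessory subunit KChIP2, which is required for that current in the mouse ventricle. Kcnh2 (ERG) and Kcnq1 (KvLQT) carry the rapid and the slow delayed rectifier currents, and mutations of either cause long QT syndrome in man. Kcnj2 carries the inward rectifier current that holds the resting potential, and Kcnj3 is a subunit of the acetylcholine-activated channel of atrial and nodal cells. Hcn2 and Hcn4 encode cation channels of the pacemaker current, of which Hcn4 is the main one in the sinoatrial node. H3K27Ac marks active promoters and enhancers, and lamin A/C lines the inner nuclear membrane, where it contacts mostly silent chromatin.

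Of the 14 separate H3K27Ac regions of these genes, 2 were present in all 4 lists, and both lay far from a promoter. One was in an intron of Armh3 and was assigned to Kcnip2, and the other was intergenic, beyond the 3′ end of Kcnh2. For all H3K27Ac regions, the share present in all 4 lists was not computed. The Kcnip2 and Kcnh2 regions carried the only acetylation peaks assigned to any of the 8 genes after swimming. For this reason the 300 bases around the Des+/+ basal summit of each are shown here on build GRCm38, read from the GRCm38.p6 genome. Capitals mark a match to any of 7 motifs searched on both strands, 5 of which are given by their letters and the MEF2 and CArG sites by name. The GATA motif was searched as AGATAA, and the M-CAT motif of muscle genes was searched as CATTCC. The GC box was searched as GGGCGG in every window, and the half-site of nuclear receptors as AGGTCA. The motif of T-box factors was searched as AGGTGT, which overlaps none of the others in the windows shown.
Kcnip2 distal region, chr19:45854902-45855201, plus strand: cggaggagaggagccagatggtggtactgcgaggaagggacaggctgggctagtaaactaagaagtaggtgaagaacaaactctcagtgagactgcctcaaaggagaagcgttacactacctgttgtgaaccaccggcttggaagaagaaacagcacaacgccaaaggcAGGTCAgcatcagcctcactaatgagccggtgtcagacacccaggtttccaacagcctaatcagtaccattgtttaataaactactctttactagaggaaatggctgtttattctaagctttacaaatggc
Kcnh2 distal region, chr5:24266218-24266517, plus strand: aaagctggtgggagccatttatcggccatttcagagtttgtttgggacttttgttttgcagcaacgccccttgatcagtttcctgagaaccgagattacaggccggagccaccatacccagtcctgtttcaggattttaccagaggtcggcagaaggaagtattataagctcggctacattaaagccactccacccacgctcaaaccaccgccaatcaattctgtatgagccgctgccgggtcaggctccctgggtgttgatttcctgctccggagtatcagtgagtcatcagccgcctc

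The Kcnip2 distal window held 1 AGGTCA match and no other, and 15.2% of the summit windows of all 15757 Des+/+ basal peaks held that motif. The Kcnh2 distal window held no match to any of the 7 motifs. That window is set on the basal summit, and the Kcnh2 swim summits lay outside it, at chr5:24266694 (Des+/+) and chr5:24266718 (Des-/-). Sequence at those swim summits was not searched. No MEF2 or CArG match, which 1.60% and 1.02% of all summit windows held, was found in either window. Their GC content was 47.7% (Kcnip2) and 52.0% (Kcnh2), with 6 and 12 CpG dinucleotides, where the median summit window of the list had 58.3% and 15.

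At the promoters, the 300 bases from 250 before to 50 after the gene start are shown for 3 genes that had a promoter peak in both basal lists and for Hcn4, which had none in any list. The Kcnip2, Kcnj2 and Hcn4 windows are those of the RefSeq promoter table (GRCm38.p6), which held 7 of the 8 genes. Its Kcnh2 window lies at an inner start of the gene, away from the peaks, and the window shown is at the start of the GENCODE M21 record instead. Capitals again mark motif matches.
Kcnh2 start, chr5:24351555-24351854, minus strand: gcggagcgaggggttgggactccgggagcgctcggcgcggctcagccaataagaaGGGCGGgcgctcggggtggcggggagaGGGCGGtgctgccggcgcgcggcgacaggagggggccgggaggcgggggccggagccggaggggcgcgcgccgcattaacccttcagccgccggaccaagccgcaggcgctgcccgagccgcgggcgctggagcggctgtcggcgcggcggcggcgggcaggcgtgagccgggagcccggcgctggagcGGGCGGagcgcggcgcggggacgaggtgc
Kcnip2 promoter, chr19:45816014-45816313, minus strand: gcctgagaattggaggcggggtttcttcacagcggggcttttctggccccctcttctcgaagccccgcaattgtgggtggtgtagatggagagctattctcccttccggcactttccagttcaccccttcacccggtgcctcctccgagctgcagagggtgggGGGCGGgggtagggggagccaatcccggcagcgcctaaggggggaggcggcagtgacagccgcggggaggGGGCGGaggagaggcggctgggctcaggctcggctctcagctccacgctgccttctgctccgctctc
Kcnj2 promoter, chr11:111065914-111066213, plus strand: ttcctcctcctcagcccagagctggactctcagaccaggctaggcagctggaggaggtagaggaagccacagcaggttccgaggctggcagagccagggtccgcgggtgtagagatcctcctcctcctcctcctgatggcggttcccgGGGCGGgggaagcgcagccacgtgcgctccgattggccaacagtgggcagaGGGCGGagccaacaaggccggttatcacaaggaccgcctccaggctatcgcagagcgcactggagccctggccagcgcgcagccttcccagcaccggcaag
Hcn4 promoter, chr9:58822699-58822998, plus strand: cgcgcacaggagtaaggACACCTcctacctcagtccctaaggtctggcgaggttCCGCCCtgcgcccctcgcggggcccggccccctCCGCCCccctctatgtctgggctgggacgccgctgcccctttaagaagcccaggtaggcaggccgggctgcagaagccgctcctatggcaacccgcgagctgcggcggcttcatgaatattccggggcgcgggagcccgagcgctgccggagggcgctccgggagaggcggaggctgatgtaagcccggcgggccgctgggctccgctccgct

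All 4 promoter windows held GC boxes, 3 in Kcnh2 and 2 each in Kcnip2, Kcnj2 and Hcn4, as did 35.7% of the 32851 promoters in the table. Hcn4 also held 1 AGGTGT match. The promoters of genes with and without a peak overlapped in composition. GC content was 81.0% at the Kcnh2 start, 67.0% in Kcnip2 and 66.7% in Kcnj2, and it was 68.7% in Kcnd2, 72.3% in Hcn2 and 71.7% in Hcn4, none of which had a promoter peak. Kcnj3 was lower at 57.7%, and the median promoter had 52.7%. CpG dinucleotides numbered 51 at the Kcnh2 start, 18 in Kcnip2 and 18 in Kcnj2, against 26 in Kcnd2, 26 in Hcn2, 31 in Hcn4 and 10 in Kcnj3. Of the 3485 promoter windows with at least the 68.7% GC and 26 CpG of Kcnd2, 66.9% overlapped a Des+/+ basal peak, against 27.7% of all windows. Kcnd2, Hcn2 and Hcn4 were among the GC-rich windows without one.

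The channel genes had 13 H3K27Ac peaks in the Des+/+ basal list and 2 in the Des+/+ swim list. For Des-/- the counts were 9 in the basal and 2 in the swim list. These peaks fell at 5 of the 8 genes in Des+/+ basal, 4 in Des-/- basal and the same 2, Kcnip2 and Kcnh2, in both swim lists. A peak within 3 kb of a gene start, called a promoter peak here, was present at 4 genes in Des+/+ basal, at 3 in Des-/- basal and at none after swimming in either genotype. The whole Des+/+ lists held 15757 (basal) and 11157 (swim) peaks and the Des-/- lists 16638 and 10407, of which between 71.2% and 77.3% were promoter peaks.

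The height of a peak is the number of overlapping reads at its summit as deposited, and no H3K27Ac peak in any list was lower than 15 reads. The channel gene peaks were low ones. In Des+/+ basal they ranged from 15 to 30 reads with a median of 18, where the list had a median of 23, and 11 of the 13 were at or below that median. In Des-/- basal they ranged from 15 to 25 reads with a median of 18, and 8 of 9 were at or below the list median of 23. Input heights under these peaks were 1 to 3 reads. A height of 15 reads has a counting interval of 8.40 to 24.7 reads, so many of these peaks could not be told from the lowest height that was listed.

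**Figure D1:**
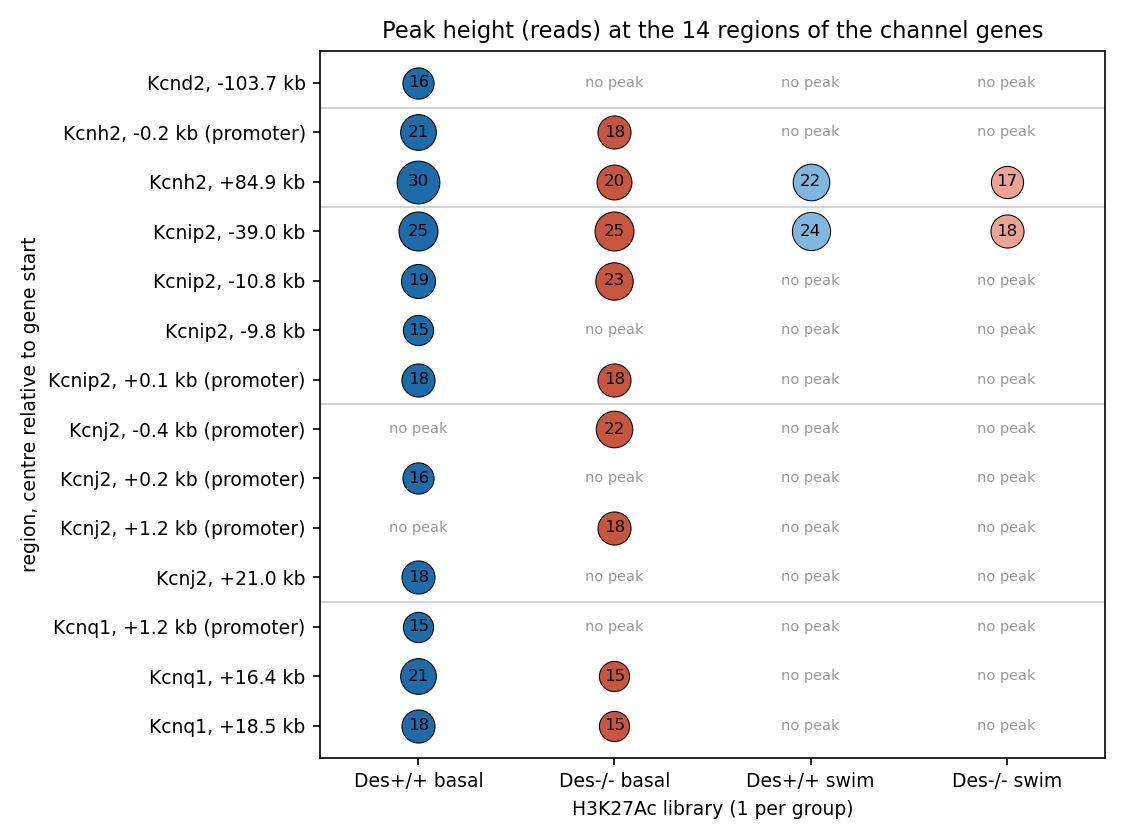
H3K27Ac peak height in reads (number and area of each circle) at the 14 regions of the channel genes (rows, with the distance of the region's centre from the gene start in kb) in the 4 libraries (columns, 1 library each). Most circles are in the basal columns, and the swim columns hold only the Kcnh2 region at +84.9 kb and the Kcnip2 region at -39.0 kb.

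Kcnip2 had the most peaks. Its promoter peak reached 18 reads over an input of 2 in Des+/+ basal (chr19:45815287-45816414) and 18 over 3 in Des-/- basal (chr19:45815297-45816558), and it covered the gene start in both. The height was equal in the basal genotypes, and neither swim list had a peak at the promoter. Upstream of the gene, in introns of the neighbouring gene Armh3, a region 10.8 kb from the start reached 19 reads in Des+/+ basal (chr19:45826394-45827247) and 23 in Des-/- basal (chr19:45826508-45827357). A further peak of 15 reads next to it (chr19:45825662-45826154) was in the Des+/+ basal list alone. The distal region, in intron 23 of 25 of Armh3 and 38.7 kb upstream of the Kcnip2 start, was present in every list. In Des+/+ it reached 25 reads (basal) and 24 (swim) over inputs of 1 and 2. In Des-/- it reached 25 (basal) and 18 (swim), each over an input of 1. The Des-/- swim library was the low one, and the other 3 stood within 1 read of each other. Its peaks lay almost base on base, from chr19:45854753-45855380 in Des+/+ basal to chr19:45854796-45855389 in Des-/- swim. The assignment to Kcnip2 is by nearest start only, since the region lies inside the transcribed part of Armh3.

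Kcnh2 had peaks at its start and at 1 distal region. In Des+/+ basal there were 2 promoter peaks, of 16 reads over the start (chr5:24350947-24351666) and of 21 reads just upstream (chr5:24351905-24352738), separated by 238 bp. In Des-/- basal a single peak of 18 reads and 1668 bp spanned both (chr5:24351059-24352726). In chromosome coordinates, the GC-rich window printed above begins inside the first of these Des+/+ peaks and ends within the 238 bp gap. Printed on the minus strand, it runs the other way. Neither swim list had a peak there. The distal region lay 52.1 kb past the end of the Kcnh2 record, with the next protein-coding gene, Nupl2, 81.9 kb away on the other side. In Des+/+ it reached 30 reads (basal, chr5:24265893-24267174) and 22 (swim, chr5:24266503-24267465). In Des-/- it reached 20 (basal, chr5:24265981-24267037) and 17 (swim, chr5:24266001-24266883), and the input was 2 in each library. Des+/+ was the higher genotype in both conditions.

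Kcnq1 had 3 peaks in the Des+/+ basal list and 2 in that of Des-/-. The promoter peak of 15 reads (chr7:143107411-143107762), at the lowest height listed, was in Des+/+ basal alone. A pair of regions inside the gene, 16.4 and 18.5 kb from the start of its record, was shared by the basal lists. The first, in an intron, reached 21 reads in Des+/+ basal (chr7:143122575-143123114) and 15 in Des-/- basal (chr7:143122473-143122962). The second, over the single exon of the unclassified transcript Gm38321 within Kcnq1, reached 18 reads in Des+/+ basal (chr7:143124554-143125080) and 15 in Des-/- basal (chr7:143124589-143125144). No Kcnq1 peak was listed after swimming in either genotype. Near the 3′ end, a peak of 16 reads in the last intron (chr7:143407941-143408569) was in Des-/- basal alone and had been assigned to Cdkn1c.

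Kcnj2 differed in where its promoter peaks lay. In Des+/+ basal a peak of 16 reads sat just past the start (chr11:111066191-111066625). In Des-/- basal there were 2 peaks, of 22 reads before the start (chr11:111065609-111066006) and of 18 reads in the gene (chr11:111066706-111068007). The Des+/+ peak fell into the gap between them, 184 bp from the first and 80 bp from the second. All 3 were counted as having no partner in the other genotype, although each basal list had a Kcnj2 promoter peak. A peak of 18 reads 20.7 kb downstream (chr11:111086905-111087411) was in Des+/+ basal alone. After swimming the nearest peak of any gene was 1190 kb from the Kcnj2 start in either genotype.

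Kcnd2 had 1 H3K27Ac peak, of 16 reads in Des+/+ basal (chr6:21111501-21112095). It lay 103 kb upstream in intergenic sequence, and none was at the promoter or in the gene, whose record spans 514303 bp. The accessory gene Kcnip2 thus had a promoter peak in both basal lists and Kcnd2, a pore gene of the same current, in none.

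**Figure D2:**
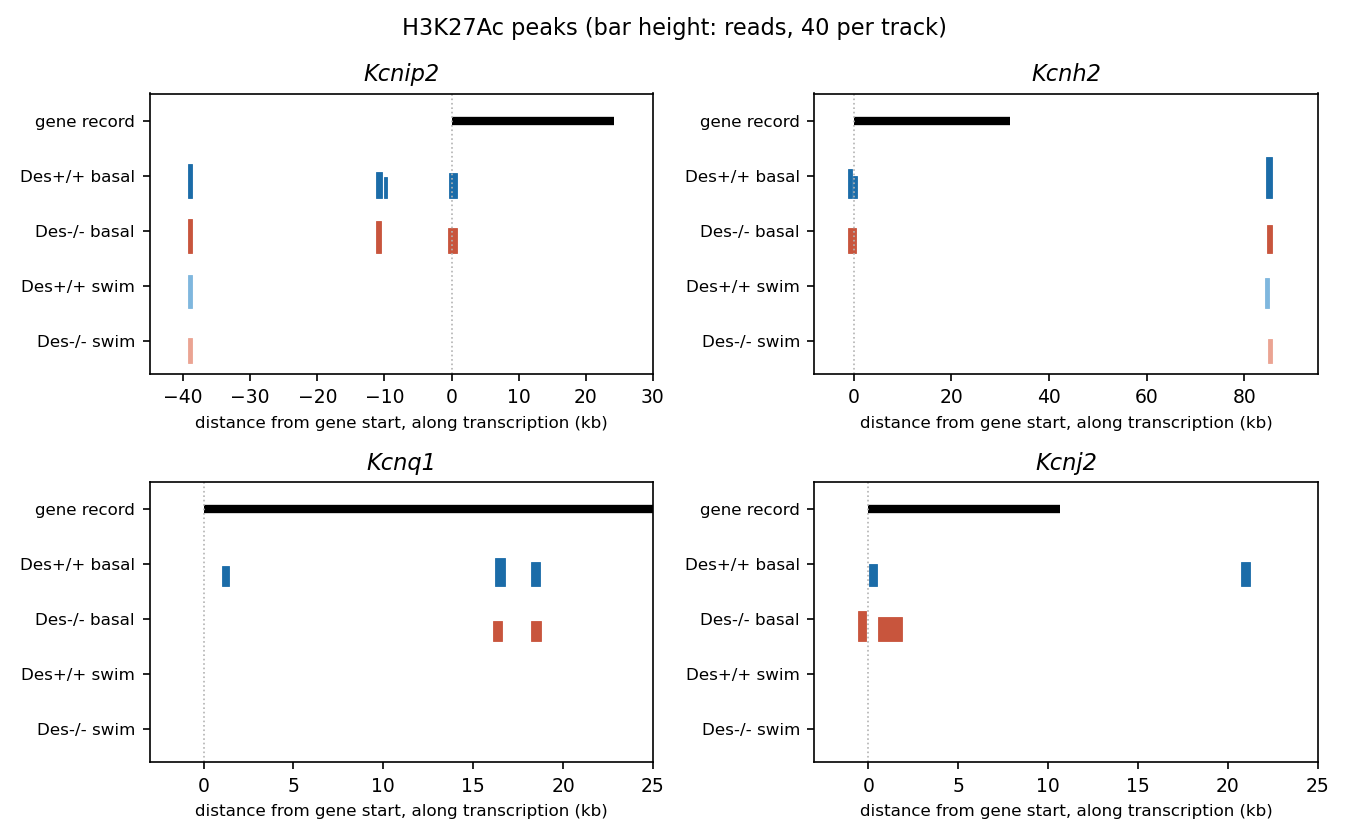
Position of every H3K27Ac peak of Kcnip2, Kcnh2, Kcnq1 and Kcnj2 by distance from the gene start along the direction of transcription (kb), with 1 track per library and bar height giving reads (40 reads fill a track). The black bar is the gene record, the start is the dotted line, and peaks at the start appear in basal tracks alone.

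Between the basal genotypes, 5 of the 13 Des+/+ peaks had no partner in Des-/- (overlap of at least 1 bp), where 14.5% of all Des+/+ basal peaks had none. They were the peaks named above at the Kcnj2 promoter, downstream of Kcnj2, at the Kcnq1 promoter, upstream of Kcnd2 and 9.8 kb upstream of Kcnip2, all of 15 to 18 reads. In the other direction, 2 of the 9 Des-/- peaks, both at the Kcnj2 promoter, had no partner in Des+/+, against 19.7% of all. Both shares are over peaks of every height, and shares within the heights of the channel gene peaks were not computed for this pair. Kcnd2, with its peak of 16 reads, was the one channel gene with a peak in Des+/+ basal and none in Des-/- basal. The share of all genes for which this held was not computed.

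At the 7 regions that both basal lists held, heights were compared after division by the median ratio of all 12247 shared regions, which was 1.06 (Des-/- over Des+/+). A scaled ratio past 1.5 times either way was counted, and 6.14% of all shared regions were past it. The Kcnh2 distal region was past it, with a scaled ratio of 0.630 (counting interval 0.339 to 1.15). The other 6 were not, at 0.675 and 0.787 for the Kcnq1 regions, 0.810 for the Kcnh2 promoter, 0.944 for the Kcnip2 promoter, 1.14 for the Kcnip2 region at 10.8 kb and 0.944 for the distal Kcnip2 region. Every one of the 7 intervals included 1, and at these heights a difference of this size was not detectable.

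In the swim lists both genotypes held the same 2 regions, so that 0 of 2 Des+/+ swim peaks and 0 of 2 Des-/- swim peaks lacked a partner, against 27% (3015 of 11157) and 22.2% (2313 of 10407) of all peaks of those lists. The scaled ratios of Des-/- over Des+/+ were 0.677 (interval 0.346 to 1.30) at the Kcnip2 region and 0.698 (0.348 to 1.38) at the Kcnh2 region. Neither was past 1.5 times, where 7.57% of the 7492 shared regions were. At the Kcnh2 region the swim peaks of the genotypes overlapped by less than 50% of the shorter one.

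Swimming was compared with the basal state within each genotype. Of the 13 Des+/+ basal peaks, 11 lacked a partner after swimming, against 39.0% of all Des+/+ basal peaks. Of the 9 Des-/- basal peaks, 7 lacked one, against 44.8% of all. No channel gene peak of a swim list lacked a basal partner in either genotype, where 8.39% of Des+/+ swim peaks and 6.28% of Des-/- swim peaks did. By gene, Kcnd2, Kcnj2 and Kcnq1 had a peak in Des+/+ basal and none in Des+/+ swim (3 of 5 genes, against 27.4% of all genes with a basal peak). Kcnj2 and Kcnq1 did so in Des-/- (2 of 4 genes, against 32.3%).

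The promoter peaks were absent from the swim lists in both genotypes. The 4 genes with a promoter peak in Des+/+ basal (Kcnh2, Kcnip2, Kcnj2 and Kcnq1) had none in Des+/+ swim, against 28.0% of all genes with a promoter peak. The 3 genes in Des-/- (Kcnh2, Kcnip2 and Kcnj2) likewise had none, against 32.0% of all. Over the whole basal lists, promoter peaks lacked a swim partner less often than other peaks. The shares were 33.7% against 52.4% in Des+/+ and 37.7% against 62.4% in Des-/-. Among channel gene peaks, 5 of 5 promoter peaks and 6 of 8 others lacked one in Des+/+, and 4 of 4 and 3 of 5 in Des-/-. The nearest remaining peaks to the Kcnh2 start belonged to Nos3, the endothelial nitric oxide synthase gene, with 18 reads in Des+/+ swim and 23 in Des-/- swim at 13.2 and 12.7 kb.

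The share of peaks without a swim partner moved with peak height, and the channel gene peaks were of the low heights. In Des+/+, 79.0% of all basal peaks of 15 or 16 reads had no partner, 68.9% of those of 17 or 18 reads, 34.9% of those of 23 to 25 reads and 0.408% of those of 41 reads or more. In the range of the channel gene peaks, 15 to 30 reads, the share was 54.4%, and for promoter peaks of 15 to 21 reads, the range of the 5 channel gene promoter peaks, it was 68.7%. In Des-/-, it was 68.9% for peaks of 15 to 25 reads and 62.9% for promoter peaks of 18 to 22 reads. Heights at shared regions were also lower after swimming, with a median ratio of 0.741 in Des+/+ and 0.756 in Des-/-. These ratios come only from regions listed in both conditions, and whether they held for peaks without a swim partner was not tested. At the listed minimum of 15 reads they correspond to a basal height of 20.2 reads in Des+/+ and 19.8 reads in Des-/-. Of the 11 Des+/+ peaks without a swim partner, 9 were of 20 reads or fewer, and the others, at the Kcnh2 promoter and in the Kcnq1 intron, had 21 each. Of the 7 Des-/- peaks without one, 5 were of 18 reads or fewer, and the others, before the Kcnj2 start and 10.8 kb upstream of Kcnip2, had 22 and 23 reads, above that level. When the same number of highest peaks, 10407, was taken from each list, 2 of 4 Des+/+ peaks and 2 of 4 Des-/- peaks had no swim partner, against 23.6% and 24.4% of all. In these bulk samples, fewer acetylated cells, less acetylation per cell and lower depth or yield of a library cannot be told apart. Exact read totals of the libraries were not used here.

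**Figure D3:**
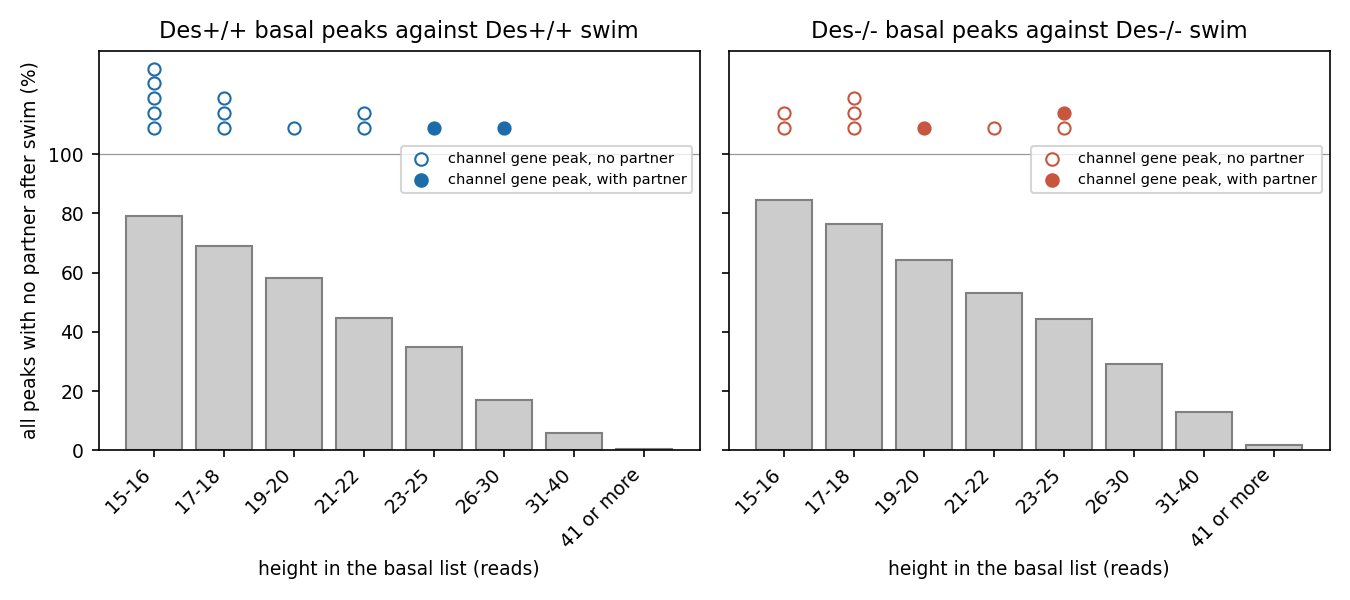
Percent of all basal H3K27Ac peaks with no overlapping peak after swimming (bars, y axis) by height in the basal list (reads, x axis), for Des+/+ (left) and Des-/- (right). Circles above the 100% line are the single channel gene peaks in their height class, open where there was no swim partner (11 of 13 in Des+/+ and 7 of 9 in Des-/-) and filled where there was one; the bars fall from 79.0% and 84.7% in the lowest class to 0.408% and 1.85% in the highest.

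At the regions listed both before and after swimming, scaled ratios of swim over basal were 1.30 (0.709 to 2.37) in Des+/+ and 0.952 (0.489 to 1.82) in Des-/- for the Kcnip2 region. For the Kcnh2 region they were 0.990 (0.544 to 1.77) and 1.12 (0.553 to 2.26). None was past 1.5 times, which 9.13% of shared regions were in Des+/+ and 7.35% in Des-/-.

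Hcn2, Hcn4 and Kcnj3 had no H3K27Ac or lamin A/C peak in any of the lists used here, and no peak of another gene overlapped their records. The surroundings differed. Hcn2 lay beside Bsg, the gene of basigin, whose promoter peak 11.0 to 11.5 kb upstream of the Hcn2 start reached 41 (basal) and 38 reads (swim) in Des+/+ and 43 and 48 reads in Des-/-. The peak nearest to the Hcn4 start was at Neo1, 212 to 213 kb away, in 3 lists and at Nptn, 240 kb away, in Des-/- swim. Around Kcnj3 the nearest peak in any list was 1680 kb from the start, at Nr4a2.

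**Figure D4:**
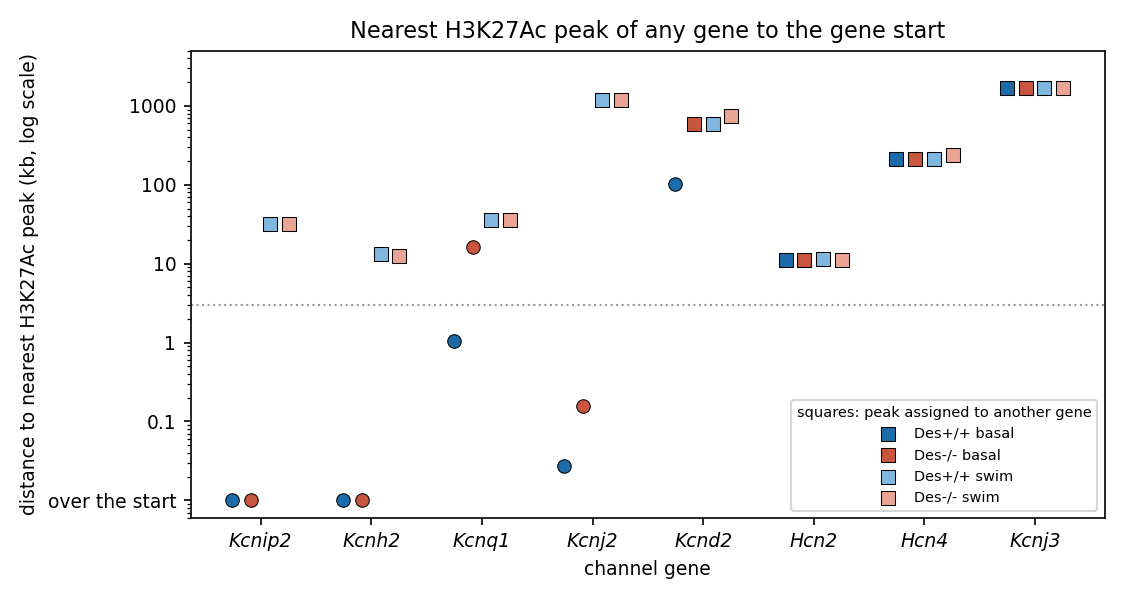
Distance from the start of each channel gene to the nearest H3K27Ac peak of any gene (kb, log scale, with peaks over the start drawn at the bottom) in the 4 libraries, as circles where the peak was assigned to that gene and squares where it was assigned to another. Below the dotted line at 3 kb lie Kcnip2, Kcnh2 and Kcnj2 in both basal libraries and Kcnq1 in Des+/+ basal; Hcn2 stays near 11 kb, Hcn4 above 200 kb and Kcnj3 at 1680 kb in every library.

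Lamin A/C peaks were few and low, from 188 to 831 in a list, with 8 reads as the lowest. One was assigned to a channel gene, Kcnd2, in Des+/+ swim (chr6:20696760-20696951). It had 8 reads over an input of 1 and lay 519 kb upstream in intergenic sequence. Inside Kcnd2, intron 1 of 5 held a lamin A/C peak in each swim list, of 9 reads in Des+/+ (chr6:21615473-21615672) and 8 in Des-/- (chr6:21620069-21620259). They were 4.40 kb apart, did not overlap, had been assigned to Tspan12 and had no counterpart in either basal list. The share of all lamin A/C peaks without a partner in another list was not computed. A height of 8 reads has a counting interval of 3.45 to 15.8. No lamin A/C peak lay in the record of any of the other 7 genes. One of 10 reads, assigned to Bsg, lay 5.77 kb upstream of the Hcn2 start in Des+/+ swim (chr10:79710637-79710860).

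Other channel genes gave a wider view. Of 11 sodium channel genes listed, 1 had an H3K27Ac peak, and it had one in every list. Of 31 other potassium and pacemaker channel genes, 14 had a peak in at least 1 list, with 11 (basal) and 11 (swim) in Des+/+ and 9 and 5 in Des-/-. Among the highest in Des+/+ basal were Kcnk6 with 34 reads and Kcnj11, the pore of the ATP-sensitive channel, with 31. Of the 11 with a peak in Des+/+ basal, 2 had none in Des+/+ swim, against 27.4% of all genes with a basal peak. Of the 9 in Des-/- basal, 5 had none in Des-/- swim, against 32.3% of all. The difference between these counts was not tested. Genes with a peak in every list but one included Kcnab2, Kcnk6 and Abcc9, without one in Des-/- swim, and Kcne1, the partner subunit of the Kcnq1 channel, without one in Des-/- basal. Lamin A/C peaks were assigned to Dpp10 in Des+/+ swim (15 reads) and Des-/- swim (8 reads), to Dpp6 in Des-/- basal (9 reads) and to Kcna4 in Des-/- swim (9 reads).

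The pattern of highest heights over the 4 H3K27Ac libraries was compared among channel genes by the Euclidean distance of log2(height + 1), with 0 for no peak. Kcnk3, a background potassium channel, was the nearest to both Kcnh2 (0.34) and Kcnip2 (0.39), with 25 (basal) and 21 reads (swim) in Des+/+ and 20 reads in both Des-/- libraries. Kcnd3 and Kcnn1, each with 20 reads in Des+/+ basal and no peak elsewhere, were nearest to Kcnd2 (0.30). They were also the nearest of the 42 other channel genes to Kcnq1, but at a distance of 4.00, and Abcc9 was nearest to Kcnj2 at 4.01. Both distances came almost wholly from 1 library, where a peak at the listed minimum of 15 reads stood against no peak. That peak was of Kcnq1 in Des-/- basal and of Abcc9 in Des+/+ swim. Distances of this size therefore do not set Kcnq1 or Kcnj2 apart from the other channel genes. Kcnq1 and Kcnj2 themselves both had peaks in the basal lists of both genotypes and in neither swim list.

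Marker genes were checked against the cell label by their H3K27Ac peaks. All 8 cardiomyocyte markers had a peak in 3 lists and 6 of 8 in Des-/- swim, where Actc1 and Myl2 had none. Their highest heights summed to 261 (basal) and 222 reads (swim) in Des+/+ and to 257 and 130 reads in Des-/-. Endothelial markers also had peaks, at 6 (basal) and 5 (swim) of 6 genes in Des+/+ and at 6 and 4 in Des-/-, with sums of 243 and 142 reads in Des+/+ and 227 and 131 in Des-/-. Of the 6 fibroblast markers, 1 in Des+/+ basal and 2 in Des-/- basal had one and 0 in either swim list, and none of the leukocyte or mural markers did in any list. Of the conduction system markers Tbx3 alone had a peak, in each list, and of the atrial markers Myl4 alone, in 3 lists. The summed heights of cardiomyocyte and endothelial markers were thus lower in the swim lists, and a marker without a peak added 0 to its sum. Heights at all shared regions were also lower after swimming, with a median ratio of 0.741 in Des+/+ and 0.756 in Des-/-. Whether the marker heights had a part in the swim comparisons was not tested.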

How the data were processed

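Peak lists of the 8 precipitated libraries (4 H3K27Ac and 4 lamin A/C) were used, and the 8 inputs entered through the input height of each peak. Per the labels and methods, reads were aligned with Bowtie2 2.4.4 to GRCm38 (mm10), handled with SAMtools 1.13, called against the input of each library and annotated with ChIPseeker 1.36.0. The deposited height and input height are a coverage signal in reads, the deposited fold is the ratio of both after adding 1, and the deposited distance to a transcript start is a score in bp. Whether duplicates were removed or the input scaled is not given in the sources used here. The deposited p-values and false discovery rates were not used.

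Groups were taken from the sample titles, since antibody numbers in the labels run on from sample to sample. Of 18189 deposited transcripts, 99.2% stood at the same position in GENCODE M21, which gave the gene records. Overlap needed 1 bp. Ratio intervals are exact conditional binomial and height intervals exact Poisson. The overlap code was tested on simulated data. The 8 genes and the other gene lists were chosen with earlier results of these data known. Shares of peaks within height ranges, and of promoters by composition, were added after the data were seen. Every one of the 8 genes was named with all its peaks. Other channel genes were named when among the 3 highest in Des+/+ basal, when present in every H3K27Ac list but one, when they had a lamin A/C peak, or when nearest in pattern, and 1 result of that rule is not reported here. Python 3.11.15, pandas 2.3.3 and scipy 1.17.1 were used.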

Additional observations from a re-analysis of the deposited data

Results flagged for a closer look

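At both regions present in all 4 H3K27Ac lists, the scaled ratio of swim over basal lay on opposite sides of 1 in the genotypes. At the Kcnip2 region it was 1.30 in Des+/+ and 0.952 in Des-/-, and at the Kcnh2 region 0.990 in Des+/+ and 1.12 in Des-/-. Each group had 1 library, so this difference between genotypes was not tested, and all 4 counting intervals included 1. Without scaling, all 4 ratios were below 1, from 0.720 to 0.960.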

How the results depend on the processing

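With peaks counted by overlap with the gene record and 3 kb upstream of it, in place of the nearest start, the channel genes had 7 H3K27Ac peaks in Des+/+ basal and 0 in either swim list, at 0 genes, since both distal regions lie outside the records. The lamin A/C count was then 1 in Des+/+ swim and 1 in Des-/- swim, the peaks inside Kcnd2. With 20 reads as the minimum, the H3K27Ac peaks numbered 4 in Des+/+ basal (at 3 genes), 4 in Des-/- basal and 0 in Des-/- swim (at 0 genes), by construction of the limit. With 10 reads as the minimum, 0 lamin A/C peaks were left in Des+/+ swim. With equal numbers of highest peaks, 4 were left in Des+/+ basal (at 3 genes) and 4 in Des-/- basal. Then 2 of 4 Des+/+ basal peaks had no partner in Des-/- basal, and the share of all peaks was not computed for that pair. Against the swim lists, 2 of 4 Des+/+ basal peaks (23.6% of all) and 2 of 4 Des-/- basal peaks (24.4% of all) had none. With an overlap of 50% of the shorter peak, 1 peak of each swim list, at the Kcnh2 region, had no partner in the other. In all, 40 of 60 recounts stayed within 1.5 times of their value, and all 26 recomputed height ratios within their counting intervals. No paired analysis was possible because each group had 1 library.

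Heights of 15 to 30 reads set the limit. A peak absent from a list was below the height listed, which does not show absence of the mark, and with 1 library a group no difference has a replicate check.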
